A study of Phaseolus vulgaris with 12 samples.

Results

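The loci described here are the genes of common bean (Phaseolus vulgaris) whose products capture light and move electrons in the chloroplast. They were taken from a deposited expression table of 22542 loci by annotation, a choice made with earlier results of these data known. A locus entered if its KEGG annotation contained the photosynthesis pathway or the antenna protein pathway, or if its Gene Ontology column named the plastoquinone-reducing NAD(P)H dehydrogenase (NDH) complex. This gave 81 loci, of which 50 came in through the first pathway, 21 through the second and 10 through the NDH term alone. By their descriptions 22 were antenna proteins, 9 belonged to photosystem I, 18 to photosystem II, 10 to cytochromes and electron carriers, 2 to ATP synthase and 10 to the NDH complex. The remaining 10 carried a photosynthesis annotation although their description named something else, such as a ubiquitin-like protein or a translation factor, and they are kept apart as other loci.

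RNA came from the true leaves of 2 bean varieties, 120, which the labels call cold-tolerant, and 093, which they call cold-sensitive. Each variety is a single genotype, so tolerance cannot be told apart from any other difference between the varieties. There were 4 groups of 3 libraries: 120 cold, 120 control, 093 cold and 093 control. Cold plants spent 3 days at 4 °C in an incubator, whereas the control plants were kept on the culture rack. Light was on for 12 h of each day in both places. Low temperature and the change of place therefore cannot be told apart, and neither the control temperature nor the hour of sampling is given in the sources used here. The labels record 3 pots for each variety and treatment with 4 seeds in each, but do not tie a library to a pot or plant. The p-values thus measure the spread between libraries, which may be partly technical. The values are FPKM, a measure of transcript abundance scaled for transcript length and library size, and the number of reads behind them is unknown.

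As background, photosystem II, fed by the LHCB antenna, splits water at an oxygen-evolving complex whose extrinsic subunits are O, P and Q. Its electrons pass through plastoquinone and the cytochrome b6f complex to photosystem I, which has the LHCA antenna and hands them to ferredoxin. Ferredoxin-NADP+ reductase (FNR) then makes NADPH, while the NDH complex returns electrons to plastoquinone in a cycle around photosystem I. Many core subunits are encoded in the plastid genome, whereas the antenna and most peripheral subunits are nuclear genes that are well known to respond to light and stress.

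All 12 libraries had between 12091 and 13357 loci at 1 FPKM or more, and each correlated with the others of its group at a mean of 0.945 to 0.976 on the log2 scale. The second 120 control library stood apart for the NDH genes: it was the highest of its 3 libraries for 9 of the 10 NDH loci (90%), against 38.4% of all tested loci, with a median log2 difference of 0.83 from the other two. Sums and fold values by the ratio of means include it, and several calls that rest on it are also given without it. A spread of 5-fold or more within a group of 3 libraries was found in 11 of the 71 tested members (15.5%), against 2.73% of all tested loci. The tissue label was compared with marker genes. The 20 mesophyll loci, which include carbonic anhydrases and Rubisco small chains, summed to 1145 to 1490 FPKM in 120 cold libraries and 2222 to 3142 FPKM in 120 controls, and to 1118 to 1171 FPKM in 093 cold libraries and 1850 to 2036 FPKM in 093 controls. They were matched by words in their descriptions, and not all mark leaf mesophyll. Alpha carbonic anhydrase 7 (Phvul.007G151300) was at 0 in every control library, with means of 1.19 FPKM in 120 cold and 7.05 FPKM in 093 cold libraries. No locus of the seed storage list passed the filter on low values, and its 8 loci never summed to more than 6.68 FPKM. Markers of other cell types and states moved with cold in both directions, and their part in the results was not tested.

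The members were much lower in the cold in both varieties. In 120 the 81 loci made up 2.46 ± 0.0568% of all FPKM in cold libraries and 7.03 ± 0.164% in controls (SD, n = 3 each). In 093 they made up 2.69 ± 0.103% in cold libraries and 8.25 ± 1.28% in controls (SD, n = 3 each). Their summed FPKM was 2.96-fold lower in cold than in control leaves in 120 and 2.93-fold lower in 093, and in neither variety did cold and control libraries overlap. In bulk leaf RNA, fewer cells of a type and less RNA per cell cannot be told apart.

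Single loci were tested with limma on log2(FPKM + 1), a scale that understates the change of low genes. A locus is called, and said here to rise or fall, if its p-value adjusted over all 14716 tested loci was under 0.05 and its log2 change at least 1 in size. Of the 81 members, 71 passed the filter of 1 FPKM in at least 3 libraries. In 120, 43 of these 71 fell and 3 rose in the cold, against 18.6% lower and 27.8% higher (46.4% in all) among all tested loci. In 093, 39 fell and 4 rose, against 15.2% lower and 33% higher (48.2% in all) among all tested loci. Thus 60.6% of the tested members fell in 120 and 54.9% in 093. Of the tested members, 35 fell in both varieties, 2 rose in both, none was called in opposite directions and 19 were called in neither. The absence of opposite calls rested on single libraries. Without the second 093 control, PsbQ-like 2 (Phvul.003G045300) was called lower in 093 (-4.47) and higher in 120 (2.91). The LHCB3 locus Phvul.011G155700, lower in 093, was called higher in 120 without the third 120 cold library (1.07) or the first 120 control (1.04). The median log2 change of the tested members was -1.34 in 120 and -1.12 in 093, whereas that of all tested loci was 0.18 in 120 and 0.43 in 093. Median-ratio scaling moved the median of all loci by -0.16 in 120 and by -0.42 in 093, and the number of falling members was then 48 in each variety. Cold and control libraries did not overlap for 56 members in 120 and 58 in 093, close to the background of 72.8% and 78.3% of all tested loci.

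**Figure D1:**
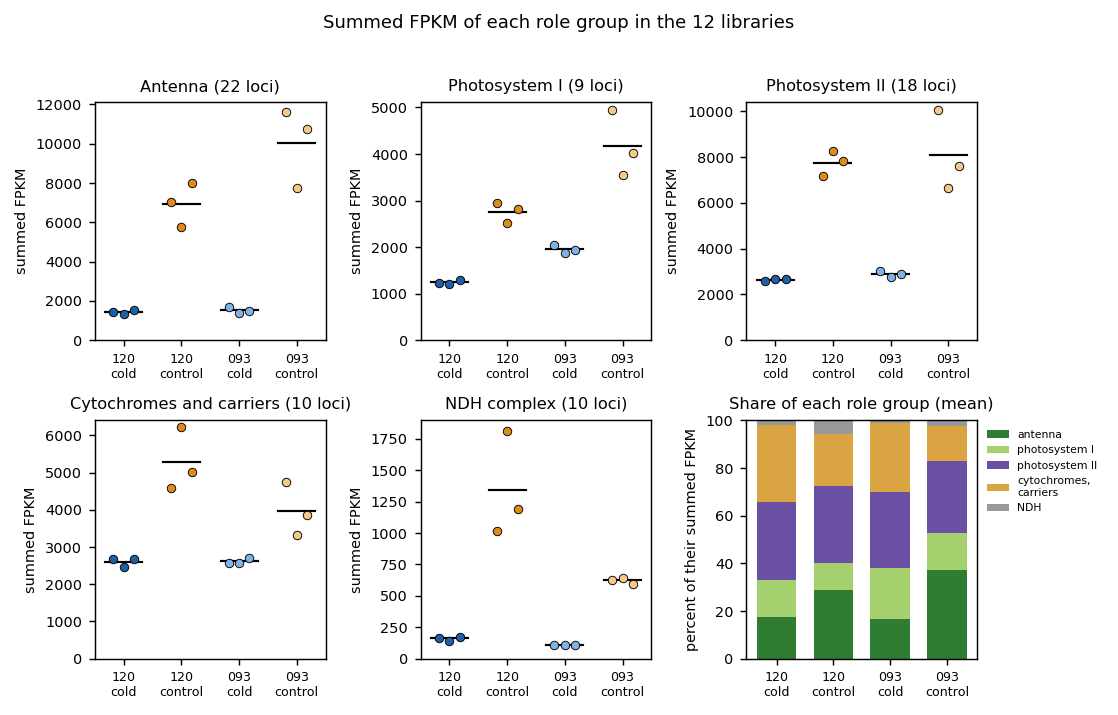
Summed FPKM of each role group in each of the 12 libraries (points; bars are group means of 3 libraries), and the mean percent of their joint sum that each role group took. The antenna sum was 4.83-fold lower in 120 cold than in 120 control libraries and 6.62-fold lower in 093, whereas the sum of cytochromes and carriers was 2.02-fold and 1.52-fold lower.

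The size of the decline varied among the role groups, as the plot of summed FPKM shows. The antenna loci summed to 1433, 1310.2 and 1553 FPKM in 120 cold libraries, against 7039, 5745 and 7988 FPKM in 120 controls. In 093 they summed to 1674, 1379.5 and 1497 FPKM in cold libraries, against 11617, 7766 and 10729 FPKM in controls. The NDH loci showed the steepest decline in 120, by 8.35-fold, and were 5.80-fold lower in 093. The 120 value includes the second 120 control, whose NDH sum of 1812 FPKM was above the 1020.3 and 1195 FPKM of the others. Photosystem I was 2.20-fold lower in 120 and 2.14-fold lower in 093, and photosystem II 2.93-fold and 2.80-fold. Leaving the other loci aside, the antenna share of the members' summed FPKM was 17.7% in 120 cold libraries and 28.8% in 120 controls, and 16.7% in 093 cold libraries and 37.2% in 093 controls. The share of cytochromes and carriers was 32.2% in 120 cold libraries and 21.9% in 120 controls, and 28.8% in 093 cold libraries and 14.8% in 093 controls. In both varieties the locus with the highest mean was FNR1 in the cold and the R subunit of photosystem II, PsbR, in controls.

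**Figure D2:**
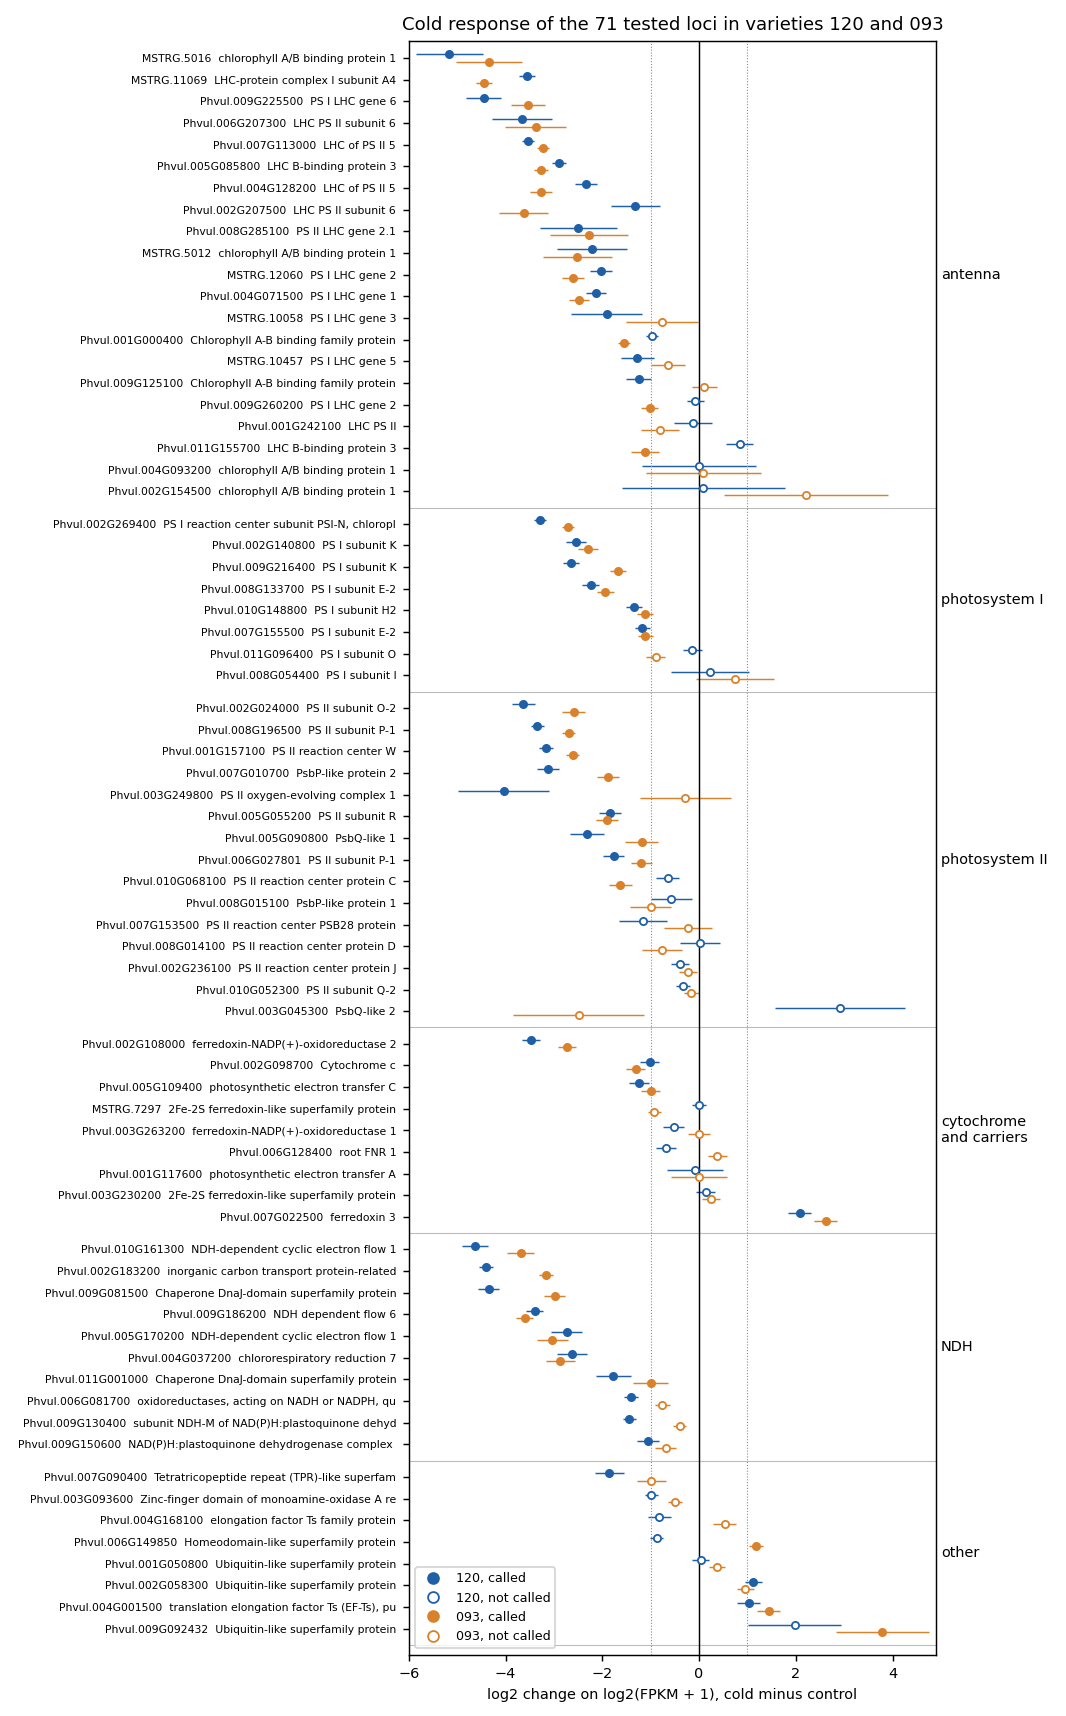
Log2 change on log2(FPKM + 1), cold minus control, of the 71 tested members by role, with standard errors from limma (n = 3 libraries a group), for 120 (blue) and 093 (orange). Filled points are called and open points are not; dotted lines mark a log2 change of 1 in size. Calls in 120 were 43 lower and 3 higher, and those in 093 were 39 lower and 4 higher.

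Among the antenna loci, 15 of 21 tested fell in each variety and none rose. Of the 7 LHCA loci, which serve photosystem I, 6 fell in 120 and 5 in 093. MSTRG.11069, annotated as LHCA4, had 65.1, 66.97 and 75.4 FPKM in 120 cold libraries, against 844, 687 and 943 FPKM in 120 controls. In 093 it had 74.7, 67.8 and 77.3 FPKM in cold libraries, against 1915, 1328 and 1667 FPKM in controls. The groups were far apart in both varieties, and the log2 change was -3.55 (SE 0.17, adjusted p = 8.4e-09) in 120 and -4.45 (SE 0.17, adjusted p = 2e-09) in 093, by limma. Phvul.009G225500 is annotated as LHCA6, which in Arabidopsis helps join photosystem I to the NDH complex. It had 3.96, 2.79 and 4.63 FPKM in 120 cold libraries, against 65.3, 180.0 and 92.1 FPKM in 120 controls. In 093 the values were 1.03, 0.785 and 0.829 FPKM in cold libraries and 30.6, 23.02 and 12.7 FPKM in controls. It fell by 29.6-fold in 120 and 25.03-fold in 093 by the ratio of means, and 120 was above 093 in both conditions. The most abundant antenna locus was MSTRG.12060, 1 of 2 annotated as LHCA2. It had 627, 564 and 658 FPKM in 120 cold libraries, against 2857, 1997 and 2778 FPKM in 120 controls. The 093 values were 649.8, 619 and 655 FPKM in cold libraries, against 4757, 2924 and 4327 FPKM in controls, so cold and control libraries did not overlap and it fell in both varieties. Its log2 change in 120 was -2.03, and -1.26 under quantile normalization. Phvul.004G071500, annotated as LHCA1, also fell, with log2 changes of -2.12 in 120 and -2.48 in 093. The LHCA3 locus MSTRG.10058 and the LHCA5 locus MSTRG.10457, each of which carries a second gene name in the table, were called lower in 120 alone, though the LHCA5 locus was also called in 093 under median-ratio (-1.10) and quantile scaling (-1.09). Neither call held whichever library was left out: the log2 change of MSTRG.10058 was -0.88 without the third 120 control, and its adjusted p passed 0.05 without any single 120 cold library, up to 0.081 without the second. That of MSTRG.10457 was -0.79 without the second 120 cold library.

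Of the 13 tested LHCB loci, which serve photosystem II, 8 fell in 120 and 10 in 093. Among them was the LHCB6 locus Phvul.002G207500, with log2 changes of -1.31 in 120 and -3.62 in 093. Its 120 call was lost in 8 alternatives, with -0.73 (limma adjusted p = 0.15) without the second 120 cold library. The most abundant LHCB locus was Phvul.004G128200, annotated as LHCB5, a monomeric antenna protein. It had 231, 209.7 and 266 FPKM in 120 cold libraries, against 1328, 869 and 1442 FPKM in 120 controls. Its 093 levels were 171, 169 and 205 FPKM in cold libraries, against 1895, 1351 and 2099 FPKM in controls. Every cold library lay below every control, with log2 changes of -2.33 (SE 0.23, adjusted p = 2.4e-06) in 120 and -3.27 (SE 0.23, adjusted p = 1.5e-07) in 093 by limma. LHCB1, the main protein of the trimeric antenna, was spread over loci in which the assembly merged or split near-identical tandem copies, so their single values are uncertain. MSTRG.5016, which carries several LHCB1 names, had 3.90, 0.0697 and 0.0798 FPKM in 120 cold libraries, against 47.6, 70.5 and 73.5 FPKM in 120 controls. Variety 093 had 0, 1.66 and 6.53 FPKM in cold libraries, against 67.8, 48.7 and 48.7 FPKM in controls, and MSTRG.5016 fell in both, with log2 changes of -5.16 and -4.35. MSTRG.5012 had uneven values, since 1 of its 120 controls was far above the others; its log2 change in 120 was -2.21, and -1.14 without that library. With only the 2 groups of 120 in the fit, that call was lost (limma adjusted p = 0.067). Phvul.004G093200, another LHCB1 locus, was listed at 0 in all 6 libraries of 120 and had 15.7, 15.4 and 15.3 FPKM in 093 cold libraries, against 71.9, 49.9 and 0 FPKM in 093 controls. The LHCB2 locus Phvul.008G285100 was called in both varieties, with log2 changes of -2.50 in 120 and -2.27 in 093. The 120 call was lost with only the groups of 120 in the fit (limma adjusted p = 0.082). Its 120 value was -1.23 without the second 120 cold library, and its 093 call was lost without the first or second 093 cold library or the third 093 control, with a highest adjusted p of 0.06.

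A locus described only as a chlorophyll A-B binding protein, Phvul.009G125100, carries the KEGG entry K03542, that of PsbS, the sensor through which plants dissipate excess light as heat. PsbS was called lower in the cold in 120 alone. It had 63.7, 56.6 and 84.4 FPKM in 120 cold libraries, against 119, 257 and 137 FPKM in 120 controls. Levels in 093 were 59.2, 57.5 and 59.6 FPKM in cold libraries, against 66.9, 44.5 and 53.6 FPKM in controls. Cold and control libraries of 120 did not overlap, while those of 093 did. The log2 change was -1.25 (SE 0.26, adjusted p = 0.001) in 120, and -0.92, no longer called, without the second 120 control, the highest of its libraries. In 093 it was 0.11 (SE 0.26, adjusted p = 0.71), not called. The other locus so described, Phvul.001G000400, carries the entry of LHCB7 and fell in 093, with a log2 change of -1.56, with -0.97 in 120, just under the threshold of size and called under median-ratio scaling (-1.17).

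In photosystem I, 6 of the 8 tested loci fell, and they were the same 6 in both varieties. Phvul.002G269400, annotated as PsaN, a lumenal subunit at the plastocyanin side, had 69.2, 74.7 and 83.8 FPKM in 120 cold libraries, against 749, 793 and 704 FPKM in 120 controls. For 093 the table gave 95.5, 93.4 and 89.2 FPKM in cold libraries, against 661, 537 and 651 FPKM in controls. It showed the largest decline of the group, with log2 changes of -3.29 (SE 0.13, adjusted p = 2.4e-09) in 120 and -2.71 (SE 0.13, adjusted p = 9.1e-09) in 093 by limma. Both copies of PsaK, a subunit next to the antenna, fell: Phvul.009G216400, with log2 changes of -2.65 in 120 and -1.68 in 093, and Phvul.002G140800, with -2.54 and -2.29. Phvul.010G148800, annotated as PsaH, which takes part in docking the mobile antenna, fell, with log2 changes of -1.34 in 120 and -1.12 in 093, and both calls were lost under quantile normalization. The locus with the highest mean over all 12 libraries in the group, Phvul.011G096400, annotated as PsaO, was not called in either variety. It had 554, 593 and 714 FPKM in 120 cold libraries, against 733, 523 and 818 FPKM in 120 controls, and these ranges overlapped. Values in 093 were 1032, 939 and 1002 FPKM in cold libraries, against 2005, 1709 and 1814 FPKM in controls, which did not overlap, but its log2 change of -0.89 (SE 0.20, adjusted p = 0.0015) was under the threshold of size, and it was called under median-ratio scaling (-1.43). PsaL, Phvul.008G054400, was not called and varied 9.42-fold among the 093 controls and 6.30-fold among the 120 cold libraries.

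In photosystem II, 8 of 15 tested loci fell in each variety and none rose, with 7 of them shared. PsbR, Phvul.005G055200, a small subunit linked to the oxygen-evolving complex, had 1072, 1080.3 and 1003 FPKM in 120 cold libraries, against 3754, 3645 and 3854 FPKM in 120 controls. Its values in 093 were 1247, 1084 and 1219 FPKM in cold libraries, against 6036, 3643 and 3969 FPKM in controls. Cold libraries were well below controls, and PsbR fell by 3.57-fold in 120 and 3.84-fold in 093 by the ratio of means. Under quantile normalization its log2 changes of -1.83 in 120 and -1.91 in 093 became -1.10 and -0.70, and the 093 call was lost. PsbW, Phvul.001G157100, a small nuclear-encoded subunit, fell, with log2 changes of -3.16 in 120 and -2.62 in 093. Of the extrinsic oxygen-evolving proteins, subunit Q was not called, whereas loci of O and P fell. Phvul.010G052300, annotated as PsbQ-2, had 919, 1016 and 975 FPKM in 120 cold libraries, against 1158, 1263 and 1242 FPKM in 120 controls. In 093 it had 997, 952 and 919.8 FPKM in cold libraries, against 1099.9, 997 and 1112 FPKM in controls, with log2 changes of -0.33 (SE 0.15, adjusted p = 0.069) and -0.16 (SE 0.15, adjusted p = 0.36), neither called. PsbO, which stabilises the manganese cluster, had 2 loci. Phvul.002G024000 fell, with log2 changes of -3.64 in 120 and -2.59 in 093. The second, Phvul.003G249800, had 3.00, 46.5 and 2.56 FPKM in 120 cold libraries, against 69.2, 202 and 209 FPKM in 120 controls. The 093 values were 54.9, 48.6 and 55.03 FPKM in cold libraries, against 209, 43.1 and 29.1 FPKM in controls, which overlapped. It fell in 120, its log2 difference being -4.04 (SE 0.94, adjusted p = 0.0023), and was not called in 093, where the change was -0.28 (SE 0.94, adjusted p = 0.8).

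Both copies of subunit P, Phvul.006G027801 and Phvul.008G196500, fell in both varieties, but the 093 call of Phvul.006G027801 was lost under quantile normalization (-0.75). The PsbP-like and PsbQ-like proteins are related to these subunits, and in Arabidopsis some of them belong to the NDH complex. Phvul.007G010700, annotated as PsbP-like 2, fell, with log2 changes of -3.13 in 120 and -1.88 in 093. Phvul.005G090800, PsbQ-like 1, fell, with log2 changes of -2.32 and -1.19. PsbP-like 1, Phvul.008G015100, was not called in either variety, with -0.999 in 093, but was called there under median-ratio (-1.52) and quantile scaling (-1.53). PsbQ-like 2, Phvul.003G045300, had 8.83, 6.80 and 13.02 FPKM in 120 cold libraries, against 0.385, 0.147 and 0.584 FPKM in 120 controls. Its 093 levels were 0.164, 8.13 and 11.02 FPKM in cold libraries, against 118, 0.825 and 103 FPKM in controls. It varied 67.0-fold among the 093 cold libraries and 143-fold among the 093 controls. With all libraries it was not called in either cold contrast. With only the groups of 120 in the fit, its change of 2.91 was called (limma adjusted p = 0.00014). Without the second 093 control it was called lower in 093 (-4.47, limma adjusted p = 0.00045) and higher in 120 (2.91, limma adjusted p = 0.0033). Subunits that flowering plants encode in the plastid genome were represented by 9 loci, of which 4 were tested. Oligo(dT) selection was used for these libraries, and reads from plastid transcripts and nuclear copies cannot be told apart here. Of those 4, Phvul.010G068100, annotated as the core antenna protein C of photosystem II, fell in 093, with a log2 change of -1.63, and the others were not called in either variety.

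Of the 9 tested cytochrome and carrier loci, 3 fell and 1 rose in each variety, and these were the same loci. The reductases, both leaf-type in Arabidopsis, differed. FNR1, Phvul.003G263200, had 1443, 1266 and 1205 FPKM in 120 cold libraries, against 1553, 2432 and 1740.0 FPKM in 120 controls. Variety 093 had 1189.8, 1205 and 1249 FPKM in cold libraries, against 1521, 1015 and 1174 FPKM in controls, and it was not called in either variety. FNR2, Phvul.002G108000, had 54.6, 45.1 and 61.03 FPKM in 120 cold libraries, against 469, 816 and 578 FPKM in 120 controls. Levels in 093 were 50.3, 52.9 and 52.3 FPKM in cold libraries, against 371, 322 and 360.4 FPKM in controls. FNR2 fell by 11.6-fold in 120 and 6.78-fold in 093 by the ratio of means, with limma adjusted p-values of 2.1e-08 and 1.3e-07. Phvul.005G109400, annotated as PetC, the Rieske iron-sulfur protein of the cytochrome b6f complex, had 1089, 1027 and 1299 FPKM in 120 cold libraries, against 2485, 2901 and 2646 FPKM in 120 controls. For 093 the table gave 1048, 1035 and 1113 FPKM in cold libraries, against 2593, 1779 and 2105 FPKM in controls. The log2 changes of PetC were -1.24 in 120 and -1.001 in 093. Under quantile normalization the first was lost (-0.19). The second lay at the threshold and was lost without the first or second 093 cold library or the first 093 control, where it was as small as -0.86. It was -1.54 under median-ratio scaling, and under quantile normalization it turned to 0.045. Phvul.002G098700, described as cytochrome c with the KEGG entry of cytochrome c6, fell, with log2 changes of -1.02 in 120 and -1.31 in 093. The first of these was lost without any of 4 libraries of 120, down to -0.93 without the second 120 control.

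The locus that rose was Phvul.007G022500, annotated as ferredoxin 3, which in Arabidopsis is the root-type ferredoxin. It had 66.7, 95.7 and 83.1 FPKM in 120 cold libraries, against 25.7, 14.4 and 16.6 FPKM in 120 controls. Values in 093 were 146, 155 and 144 FPKM in cold libraries, against 32.7, 18.5 and 20.8 FPKM in controls. Cold libraries lay above all controls, and the log2 change was 2.08 (SE 0.24, adjusted p = 8.5e-06) in 120 and 2.62 (SE 0.24, adjusted p = 1.2e-06) in 093 by limma. Phvul.006G128400, the root-type FNR, had log2 changes of -0.69 in 120 and 0.38 in 093, and neither was called. A list matched by the words root cap, root hair and nodulin MtN21, the last naming a transporter family, holds 64 loci. Of its 38 tested loci, 6 were higher and 17 lower in 120, and 8 higher and 12 lower in 093. Among all tested loci, 27.8% were higher and 18.6% lower in 120, and 33% higher and 15.2% lower in 093. An MtN21 locus, Phvul.009G124100, had a mean of 96.9 FPKM in 120 control leaves, so the list is not specific to root. A further ferredoxin-like locus, MSTRG.7297, was listed at 0 in all 6 libraries of 120, and in 093 it had 94.02, 70.3 and 92.6 FPKM in 093 cold libraries, against 186, 145 and 158 FPKM in 093 controls. No member was described as plastocyanin. The 2 ATP synthase loci were Phvul.001G151500 and Phvul.011G125800, and the description of the second names the mitochondrial enzyme although its annotation holds the photosynthesis pathway. Both stayed under the filter, and no member that failed it exceeded 1.81 FPKM.

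Calls reached every locus of the NDH role group in 120, which leaves out the PsbP-like and PsbQ-like loci counted under photosystem II. All 10 fell in 120 and 7 in 093, against 18.6% and 15.2% of all tested loci. Cold and control libraries did not overlap for any of the 10 in either variety, against 72.8% of all tested loci in 120 and 78.3% in 093. Phvul.009G186200, annotated as NDH dependent flow 6, had the highest mean over all 12 libraries. It had 48.5, 37.5 and 42.5 FPKM in 120 cold libraries, against 359, 613 and 437 FPKM in 120 controls. Its values in 093 were 18.7, 18.4 and 17.97 FPKM in cold libraries, against 229.8, 253 and 220.4 FPKM in controls, so it fell by 10.9-fold in 120 and 12.8-fold in 093 by the ratio of means. Phvul.010G161300, 1 of 2 loci annotated as NDH-dependent cyclic electron flow 1 (NDF1), had 5.27, 4.19 and 9.60 FPKM in 120 cold libraries, against 129, 254 and 156 FPKM in 120 controls. In 093 it had 3.49, 3.09 and 3.74 FPKM in cold libraries, against 49.99, 57.6 and 61.6 FPKM in controls. The log2 change of this copy was -4.63 (SE 0.27, adjusted p = 4.3e-08) in 120 and -3.69 (SE 0.27, adjusted p = 2.4e-07) in 093 by limma. Phvul.002G183200, described only as related to inorganic carbon transport, had 12.02, 10.9 and 9.19 FPKM in 120 cold libraries, against 211, 289 and 243 FPKM in 120 controls. The 093 values were 11.3, 12.96 and 12.9 FPKM in cold libraries, against 124, 117 and 115 FPKM in controls. Phvul.009G081500, a DnaJ-domain protein, fell, with log2 changes of -4.35 in 120 and -2.99 in 093. CRR7, Phvul.004G037200, which Arabidopsis needs to accumulate the complex, fell, with log2 changes of -2.62 and -2.87. Loci annotated as subunits M (Phvul.009G130400) and O (Phvul.009G150600) and the NAD(P)H-quinone oxidoreductase Phvul.006G081700 were the 3 called in 120 alone, with 093 changes of -0.40, -0.69 and -0.76. Subunit O and Phvul.006G081700 were also called in 093 under median-ratio (-1.21 and -1.28) and under quantile scaling, so that 9 NDH loci then fell in 093. The 120 call of subunit O was lost without the second 120 cold library (-0.94) or the second 120 control (-0.78). The second DnaJ-domain locus, Phvul.011G001000, fell, with a log2 change of -1.77 in 120. Its 093 change of -1.002 was lost without any of 5 of the 093 libraries, the adjusted p reaching 0.087 without the first 093 control, and it was -1.51 under median-ratio scaling. Without the second 120 control, 9 of the 10 NDH loci still fell in 120.

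**Figure D3:**
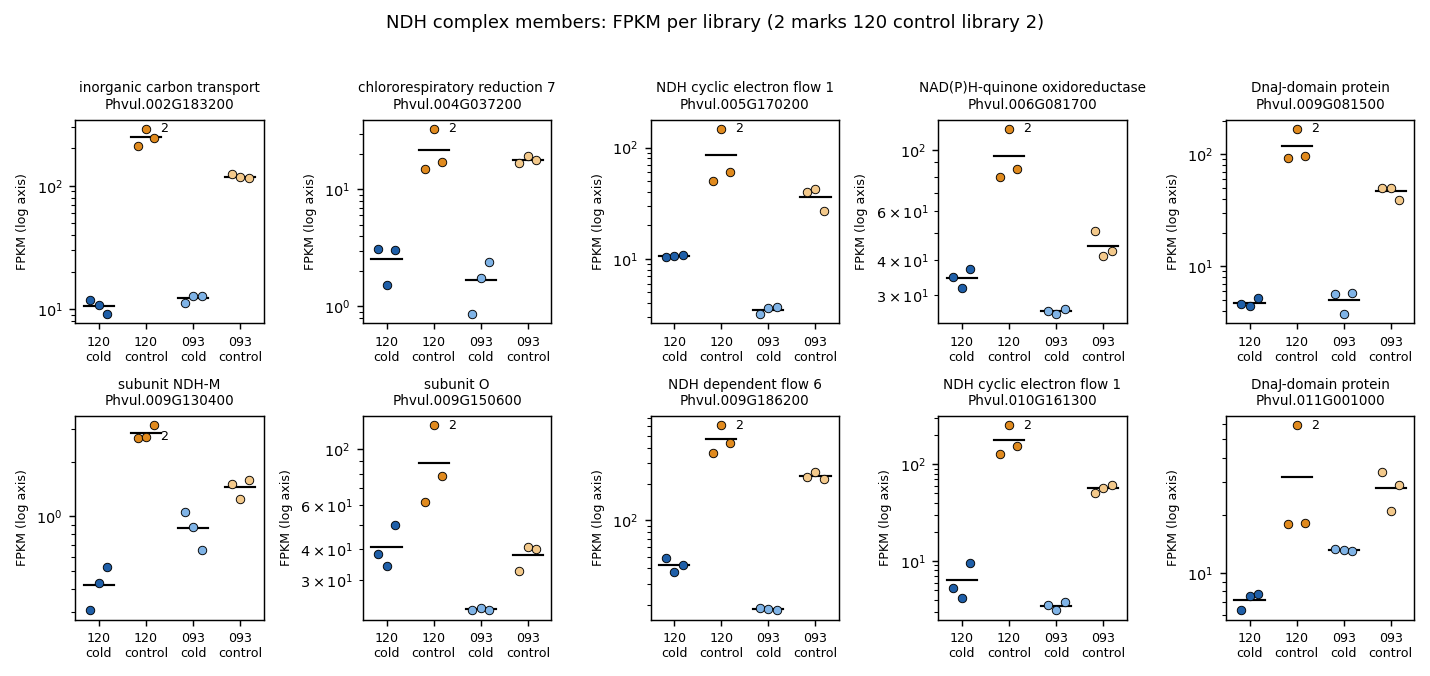
FPKM of the 10 NDH loci in each of the 12 libraries on log axes (points; bars are means of 3 libraries), with the second 120 control marked. Cold libraries lay below controls for all 10 loci in both varieties, and the marked library was the highest of the 3 for 9 of them. Among all tested loci, cold and control libraries did not overlap for 72.8% in 120 and 78.3% in 093.

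The counts of the other loci, whose descriptions do not name photosynthesis, depended on scaling. Of 8 tested, 2 rose and 1 fell in 120, while 093 had 3 that rose and none that fell. Under median-ratio and under quantile scaling, none rose and 4 fell in 120, while 1 rose and 1 fell in 093. Phvul.004G001500, described as elongation factor Ts, a translation factor, had 11.5, 9.61 and 21.2 FPKM in 120 cold libraries, against 6.24, 5.52 and 6.37 FPKM in 120 controls. Its 093 levels were 18.3, 19.8 and 19.8 FPKM in cold libraries, against 5.73, 5.59 and 8.41 FPKM in controls. Its log2 changes were 1.03 and 1.44, and the 120 call was lost without the third 120 cold library (0.71) or the second 120 control (0.97). Both calls were lost under median-ratio scaling, with 0.83 in 120 and 0.95 in 093, and under quantile scaling, with 0.76 and 0.99. Phvul.007G090400, a tetratricopeptide repeat protein, was the locus that fell, with a log2 change of -1.85 in 120. In 093 its change was -0.98, and -1.50, called, under median-ratio scaling. Phvul.009G092432, a ubiquitin-like protein, rose in 093, with a log2 change of 3.79, and varied 529-fold among the 120 cold libraries. Without these other loci, 42 of 63 tested members fell and 1 rose in 120, while 093 had 39 that fell and 1 that rose.

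Several subunits are encoded by 2 loci, and the copies did not always respond alike. For each of 10 pairs of loci for 1 subunit, with the same KEGG entry, the difference of their log2 values was compared between cold and control libraries by an exact two-sided permutation test, with cold labels permuted within each variety (400 permutations, smallest possible p 0.005). These pairs were chosen after the data had been seen. The response differed in 6 of the 10 pairs, each with an exact permutation p of 0.005 (0.00833 adjusted over the 10 pairs). FNR1 minus FNR2 shifted by 2.96 in 120 and 2.73 in 093 on the log2 scale. For LHCB3, a further protein of the trimeric antenna, Phvul.011G155700 minus Phvul.005G085800 shifted by 3.73 in 120 and 2.15 in 093. For LHCA2, Phvul.009G260200 minus MSTRG.12060 shifted by 1.95 and 1.59. The copy Phvul.009G260200 had 63.5, 69.3 and 97.5 FPKM in 120 cold libraries, against 84.5, 68.3 and 88.1 FPKM in 120 controls, which overlapped. In 093 that copy had 87.5, 84.2 and 94.2 FPKM in 093 cold libraries, against 167, 165 and 213 FPKM in 093 controls, and its 093 call was lost without the second 093 cold library (-0.98) or the third 093 control (-0.90).

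Of the P subunit pair, Phvul.006G027801 had 403, 356 and 476 FPKM in 120 cold libraries, against 1094, 1829 and 1358 FPKM in 120 controls. The other copy, Phvul.008G196500, had 68.9, 72.9 and 80.03 FPKM in 120 cold libraries, against 718, 799.5 and 757 FPKM in 120 controls. Their difference shifted by 1.57 in 120 and 1.501 in 093, and the copy with the higher control mean in both varieties was the less reduced. For PsaE, the stromal subunit where ferredoxin docks, Phvul.007G155500 minus Phvul.008G133700 shifted by 1.07 and 0.83. For NDF1, Phvul.010G161300 minus Phvul.005G170200 shifted by -1.89 in 120 and -0.66 in 093. The pairs of PsaK (exact permutation p = 0.15), LHCB6 (0.165), LHCB5 (0.065) and PsbO (0.24) missed the threshold, with mean shifts of 0.25, 1.05, 0.58 and -0.96. These p-values are for the mean over both varieties, and in these pairs the shifts had opposite signs in 120 and 093. They were -0.11 in 120 and 0.62 in 093 for PsaK, and 2.35 and -0.25 for LHCB6. For LHCB5 they were 1.1997 and -0.04, and for PsbO 0.40 and -2.31. Whether these copies differed within a single variety was not tested. Reads shared between similar copies may be split unequally by the assembly, and this was not tested.

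**Figure D4:**
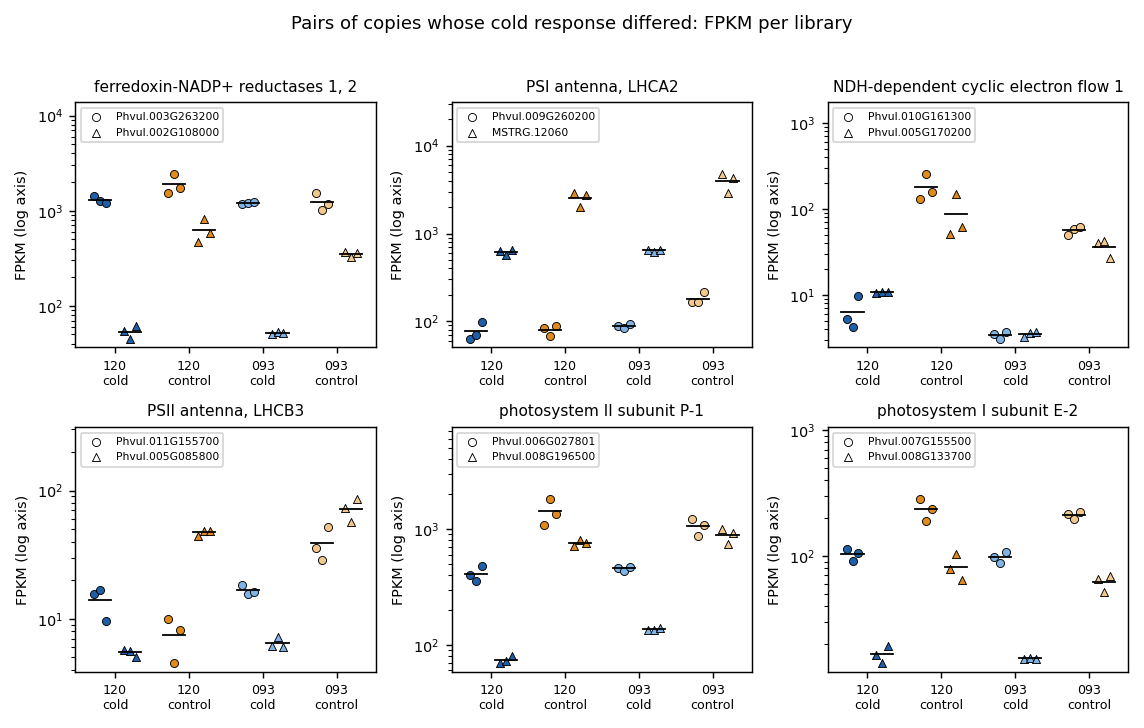
FPKM in each library, on log axes, of the 6 pairs of loci for 1 subunit whose cold response differed (circles and triangles are the 2 copies; bars are means of 3 libraries). FNR1 (Phvul.003G263200) lay between 1015 and 2432 FPKM across all libraries, while FNR2 (Phvul.002G108000) lay between 45.1 and 61.0 FPKM in the 6 cold libraries.

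The difference between the cold responses, 120 minus 093, was called for 13 of the 71 tested members. It was negative for 10 and positive for 3, against 13.1% lower and 6.5% higher (19.6% in all) among all tested loci. Both shares of members, 14.1% and 4.23%, were near the background. The balance depended on scaling: median-ratio scaling, which moved the median of all loci by 0.26 in this contrast, gave 4 negative and 9 positive calls. Called in every alternative were 4 loci. PsbS had a difference of -1.36 (SE 0.37, adjusted p = 0.016) by limma. The LHCB3 copy Phvul.011G155700 had the opposite sign, 1.96 (SE 0.40, adjusted p = 0.0041). Its values were 15.6, 16.8 and 9.64 FPKM in 120 cold libraries and 9.91, 4.49 and 8.22 FPKM in 120 controls. In 093 they were 18.5, 15.7 and 16.3 FPKM in cold libraries and 35.8, 28.6 and 52.4 FPKM in controls. It fell in 093, with a log2 change of -1.12, though the call was lost without the third 093 control (-0.89). The change of 0.84 in 120 was not called. It was called there without the third 120 cold library (1.07) or the first 120 control (1.04). The remaining stable loci were Phvul.004G168100, an elongation factor Ts (-1.35), and Phvul.006G149850, a homeodomain-like protein (-2.05), both among the other loci.

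Phvul.002G183200 and Phvul.009G081500 of the NDH group differed by -1.24 and -1.36, and both were called whichever library was left out. The first was lost under median-ratio (-0.93) and quantile scaling (-0.83), the second under quantile scaling (-0.996). For 7 more members the called difference was lost without at least 1 library. They were LHCB6 Phvul.002G207500 (2.31, lost without any of 8 libraries, adjusted p up to 0.069 without the third 093 cold library), PsbO Phvul.002G024000 (-1.04, lost without any of 8, up to 0.075 without the second 093 control) and PsbO Phvul.003G249800 (-3.75, lost without any of 9, up to 0.11 without the first 120 cold library). PsbQ-like 2 (5.403) was lost without any of 11 libraries, and PsbP-like 2 (-1.25) was -0.98 without the second 120 control. The root-type FNR (-1.07), lost without any of 4 libraries, was -0.91 without the first 120 cold library, and NDH subunit M (-1.05), also lost without any of 4, was -0.98 without the first 093 cold library. Both PsbO loci, PsbP-like 2, the root-type FNR and subunit M also lost their calls under median-ratio and under quantile scaling.

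**Figure D5:**
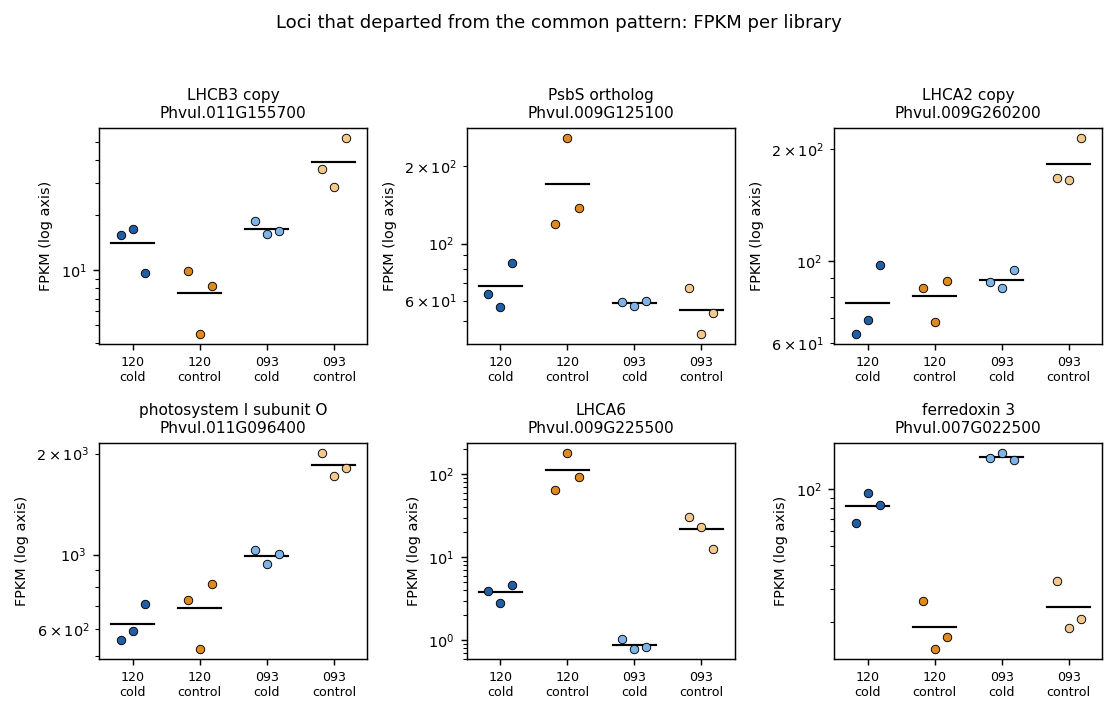
FPKM in each library, on log axes, of 6 loci chosen after their values were seen (points; bars are means of 3 libraries). Cold libraries lay below controls in 120 alone for PsbS and in 093 alone for LHCB3, the LHCA2 copy and PsaO; LHCA6 was lower and ferredoxin 3 higher in the cold in both varieties.

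The varieties were also compared directly, with control and cold libraries that the contrasts above share. Without cold, 9 members were higher and 8 lower in 120 than in 093, against 6.34% higher and 4.44% lower among all tested loci. For 34 of the 71 the varieties' libraries did not overlap, against 39.7% of all tested loci. Of the 9, 6 were NDH loci, with a median log2 difference of 1.04 over the 10 NDH loci and 0.09 over all tested loci. Their sum was 1020.3, 1812 and 1195 FPKM in 120 controls and 630.2, 644 and 594 FPKM in 093 controls. Those ranges did not overlap, but without the second 120 control 2 of the 6 NDH calls were left and 4 of the 9 in all. Median-ratio scaling gave 3 NDH calls and 6 in all against 9 lower, and quantile normalization 2 NDH calls and 5 in all. The 4 NDH calls that ended without that library were Phvul.002G183200 (1.04, 0.93 without it), Phvul.005G170200 (1.09, 0.62), Phvul.006G081700 (1.04, 0.86) and Phvul.009G150600 (1.15, 0.87). LHCA6 was 5.09-fold and PsbS 3.11-fold higher in 120 by the ratio of means, both called in every alternative. When 1 library was left out, the log2 difference ranged from 1.85 to 2.57 for LHCA6 and from 1.22 to 1.77 for PsbS. The LHCB3 copy Phvul.011G155700, the LHCA2 copy Phvul.009G260200 and PsaO were lower in 120 controls, by 5.16-fold, 2.26-fold and 2.66-fold.

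Under cold, 4 members were higher and 6 lower in 120, against 5.62% higher and 7.03% lower among all tested loci. For 34 of the 71 the libraries did not overlap, against 53.4% of all tested loci. LHCA6 remained 4.30-fold higher in 120, and Phvul.009G186200 of the NDH group was 2.34-fold higher, both called in every alternative. The number of lower members was unsteady, with 2 called without the second 093 cold library and 3 without the first 093 or the first 120 cold library. MSTRG.7297, at 0 throughout 120, was lower in both comparisons. The calls for Phvul.004G093200, also at 0 in 120, were lost without any of several libraries, the adjusted p reaching 0.11 without cold when the first 093 control was left out and 0.055 under cold when the third 093 cold library was left out.

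Lists of genes that serve the same machinery were counted beside the members. The shares of all tested loci, against which the counts are to be read, were 27.8% higher and 18.6% lower in 120. In 093 those shares were 33% and 15.2%. The lists were chosen with earlier results of these data known. Photoprotection and cyclic flow held 14 loci, of which 13 were tested; 3 were higher and 5 lower in the cold in 120, with 4 in each direction in 093. The 2 loci with its largest changes went in opposite directions within the xanthophyll cycle, and its other loci are not given one by one. Phvul.006G108200, annotated as non-photochemical quenching 1, the de-epoxidase that makes zeaxanthin, had 8.37, 6.84 and 11.9 FPKM in 120 cold libraries, against 90.9, 153 and 107 FPKM in 120 controls. Variety 093 had 5.97, 6.82 and 7.26 FPKM in cold libraries, against 48.2, 42.8 and 45.5 FPKM in controls, so cold libraries were lower in both, with log2 changes of -3.56 in 120 and -2.60 in 093. Phvul.002G018700, zeaxanthin epoxidase, which runs the cycle back, had 7.28, 4.23 and 5.83 FPKM in 120 cold libraries, against 0.434, 0.852 and 0.487 FPKM in 120 controls. Levels in 093 were 12.9, 15.3 and 16.2 FPKM in cold libraries, against 2.90, 2.95 and 2.70 FPKM in controls. This locus, low in controls, rose, with log2 changes of 2.07 in 120 and 2.04 in 093. STN7, Phvul.003G027300, the kinase that phosphorylates the mobile antenna, had 49.9, 46.5 and 34.00 FPKM in 120 cold libraries, against 286, 273 and 328 FPKM in 120 controls. For 093 the table gave 41.6, 42.1 and 41.97 FPKM in cold libraries, against 150.5, 123 and 155 FPKM in controls. It fell, with log2 changes of -2.75 (SE 0.15, adjusted p = 2.7e-08) in 120 and -1.74 (SE 0.15, adjusted p = 9.7e-07) in 093 by limma.

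The list of assembly, import and repair factors held 32 loci, of which 29 were tested; 3 were higher and 7 lower in the cold in 120, with 6 in each direction in 093. Phvul.011G025300, annotated as the chloroplast signal recognition particle component CAO, which helps deliver antenna proteins to the thylakoid, was listed at 0 in all 6 cold libraries. It had 40.2, 51.9 and 54.4 FPKM in 120 controls and 35.02, 21.1 and 29.6 FPKM in 093 controls. CRR6, Phvul.003G173400, an NDH assembly factor in Arabidopsis, had 0.700, 0.364 and 1.13 FPKM in 120 cold libraries, against 13.00, 21.2 and 16.05 FPKM in 120 controls. Values in 093 were 1.35, 1.34 and 1.03 FPKM in cold libraries, against 14.6, 14.6 and 9.79 FPKM in controls, and it fell, with log2 changes of -3.36 in 120 and -2.63 in 093. Among 9 tested sigma, GLK and related factors of 10 in that list, none rose, 3 fell in 120 and 2 fell in 093. Sigma factors direct the plastid's bacterial-type polymerase. Phvul.007G149600, sigma subunit F, fell, with log2 changes of -2.05 in 120 and -1.82 in 093, and so did Phvul.011G016400, sigma factor A, with -1.89 and -1.77.

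Marker lists of other cell types and states gave the following counts. Among all tested loci, 27.8% were higher and 18.6% lower in the cold in 120, and 33% higher and 15.2% lower in 093. Of 15 tested mesophyll loci, cold was called higher for 6 and lower for 3 in 120, and higher for 4 and lower for 3 in 093. Of 6 tested guard cell and epidermis loci, 120 had 1 higher and 3 lower, and 093 had 2 higher and 3 lower. Of 17 tested phloem loci, 120 had 5 higher and 3 lower, and 093 had 6 higher and 3 lower. Among 8 tested loci of meristem and young tissue, 120 had 2 higher and 1 lower, and 093 had 2 higher and none lower. Of 22 tested loci of senescing leaf, 120 had 8 higher and 5 lower, and 093 had 12 higher and 3 lower. The senescence list summed to 479 to 632 FPKM in 120 cold libraries and 742 to 1115 FPKM in 120 controls, and to 533 to 635 FPKM in 093 cold libraries and 500.5 to 536 FPKM in 093 controls. The phloem list summed to 141 to 298 FPKM in 120 cold libraries and 74.3 to 99.3 FPKM in 120 controls, and to 224 to 232 FPKM in 093 cold libraries and 101 to 125 FPKM in 093 controls. Much of the 120 cold sum of the phloem list came from 2 loci described as phloem protein 2. Phvul.010G078180 had a mean of 102 FPKM in 120 cold libraries and 16.0 FPKM in 120 controls, with 84.0 and 19.1 FPKM in 093. Phvul.007G116000 had 62.9 and 0.469 FPKM in 120, with 21.9 and 7.26 FPKM in 093. The guard cell and epidermis list summed to 80.9 to 108 FPKM in 120 cold libraries and 70.8 to 100.3 FPKM in 120 controls, and to 32.6 to 37.7 FPKM in 093 cold libraries and 59.7 to 71.4 FPKM in 093 controls. Much of its 120 cold sum came from 1 locus, the SLAC1 homologue Phvul.004G102800. That locus had a mean of 68.8 FPKM in 120 cold libraries and 1.31 FPKM in 120 controls. MYB60, Phvul.001G107600, fell, with log2 changes of -2.31 in 120 and -1.23 in 093. The sums for meristem and young tissue were 213 to 277 FPKM in 120 cold libraries and 190.4 to 194 FPKM in 120 controls, and 313 to 322 FPKM in 093 cold libraries and 186 to 226 FPKM in 093 controls. The list matched by root cap, root hair and nodulin MtN21, which is not specific to root, summed to 364 to 440.4 FPKM in 120 cold libraries and 626 to 687 FPKM in 120 controls. Its sums in 093 were 557 to 593 FPKM in cold libraries and 490.3 to 673 FPKM in controls. No listed marker locus was at 0 in all 12 libraries.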

How the data were processed

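RNA from true leaves was sequenced after oligo(dT) selection and dUTP strand marking, per the labels' protocols. Per the submitters' processing notes, cutadapt 1.9, HISAT2 2.0.4, StringTie 1.3.4d, DESeq2 and edgeR were used by the authors; the genome build is not given in the sources used here. The authors deposited FPKM per locus, scaled for transcript length and library size; depth is unknown, so no counting interval is given. FPKM are shares of a library, so a scaling can move every locus. Loci named MSTRG were assembled by StringTie, and 5 members carry several gene names.

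Members were found by annotation as described. The members and lists were chosen with earlier results of these data known. Named genes were the 2 most abundant and 3 most changed members of each role, those called against their role's majority, the largest differences between varieties (8 for the responses, 5 for each variety contrast), all copies of the oxygen-evolving subunits, PsbS and plastocyanin, and 2 of each related list; this named 40 members, and further members were named after their values were seen. Loci with at least 1 FPKM in 3 of 12 libraries (14716) were fitted with limma 3.58.1 in R 4.3.3 on log2(FPKM + 1) with a variance trend and group means, giving 5 contrasts, with Benjamini-Hochberg adjustment over all tested loci. The procedure was tested on simulated data. Copy pairs were compared with exact permutation tests in Python 3.11.15. Alternatives were another pseudocount (0.1), a stricter (5 FPKM) or no filter, median-ratio and quantile scaling, a replicate block, contrast groups alone, no variance trend and leaving out each library. No table of sequences was used.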

Additional observations from a re-analysis of the deposited data

Results flagged for a closer look

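The cold response differed between the varieties, by the interaction term of the limma fit (120 minus 093, adjusted p under 0.05 and a log2 size of at least 1), for 13 members, with no explanation weighed. Positive differences were 5.403 for PsbQ-like 2 (Phvul.003G045300), 2.31 for LHCB6 (Phvul.002G207500) and 1.96 for LHCB3 (Phvul.011G155700). Negative differences in the antenna and photosystem II were -1.36 for PsbS (Phvul.009G125100), -3.75 and -1.04 for the PsbO loci Phvul.003G249800 and Phvul.002G024000, and -1.25 for PsbP-like 2 (Phvul.007G010700). In the NDH group they were -1.36 for the DnaJ-domain protein Phvul.009G081500, -1.24 for Phvul.002G183200 and -1.05 for subunit M (Phvul.009G130400). The root-type FNR (Phvul.006G128400) had -1.07, elongation factor Ts (Phvul.004G168100) -1.35 and the homeodomain-like locus Phvul.006G149850 -2.05.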

How the results depend on the processing

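Depth is unknown, and values near 1 FPKM are the least certain. Of 87 results on named members, 57 kept their call in all 20 alternatives that gave a value and 30 lost it in at least 1. PetC in 093 (Phvul.005G109400) changed sign, to 0.045 under quantile normalization; the cause was not tested. Members rising in 093 numbered 2 under median-ratio and under quantile scaling, against 4; in 120 they numbered 5 with a pseudocount of 0.1 and 1 under either scaling, against 3. Positive differences of response numbered 1 without a filter, 9 under median-ratio and 6 under quantile scaling, against 3; negative ones numbered 4 and 3 under these scalings, against 10. Without cold, 5 members were higher in 120 under quantile normalization, against 9, and 5 were lower when only the contrast's groups were fitted, against 8. The cause of these moves was not tested. Leaving out 1 library gave ranges of 35 to 44 falling and 4 to 5 rising members in 093, 39 to 45 and 2 to 4 in 120, 1 to 6 positive and 6 to 13 negative differences, 4 to 11 higher and 6 to 8 lower without cold, 3 to 5 higher and 2 to 6 lower under cold, and 6 to 7 copy pairs. Replicate numbers did not pair the libraries (same-number correlations -0.08 to 0.05); with the replicate block 4 rose and 39 fell in 093, 4 rose and 42 fell in 120, and 2 differences were positive and 8 negative.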
